A study of Mus musculus with 18 samples.

Results

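Oxidative phosphorylation is the last stage of cellular respiration, in which complexes I to IV of the inner mitochondrial membrane pass electrons to oxygen. All of these but complex II pump protons, and ATP synthase uses the proton gradient to make ATP. The mitochondrial genome encodes a few catalytic subunits, and the nuclear genome encodes all the others, which are imported after translation. Several nuclear subunits of complex IV (cytochrome c oxidase) come as pairs, with a form made in nearly all cells and a form made mainly in one tissue, such as the contractile muscle forms COX6A2, COX7A1 and COX8B.

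The genes described here are those whose symbols begin with Nduf followed by a, b, c, s or v and a digit (complex I), Uqcr (complex III), Cox4 to Cox8 (complex IV) or Atp5 (ATP synthase). The rule found 80 of 23919 genes. By known function they comprise 7 core and 28 accessory subunits of complex I, 8 genes of complex III, 11 common and 8 tissue-restricted genes of complex IV, 5 genes of the F1 head of ATP synthase, and 10 of its stalk and membrane (Fo) part. The common complex IV genes include Ndufa4, whose protein was first assigned to complex I. Another 3 symbols fit the rule but do not name a subunit of these complexes in the usual sense (Atp5s, Atp5sl and Cox7a2l, the last a factor of respiratory supercomplexes). Genes of the mitochondrial genome and complex II lie outside the rule. So do Cyc1, the cytochrome c1 gene of complex III, and Ndufab1, an accessory complex I gene.

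Messenger RNA was sequenced from mouse embryos of strain C57BL/6. The groups were Pitx1 KO embryos, which the study's design gives as Pitx1-/-, and wild-type (WT) embryos, each sampled at 3 stages of development, E9.5, then E11.5, then E12.5, with 3 libraries a group. At E9.5 the tissue was the hindlimb field together with the trunk beside it, and at the later stages the hindlimb, so stage and dissection cannot be told apart in any comparison with E9.5. PITX1 is a homeodomain transcription factor of the hindlimb, and the series title names cartilage and muscle formation as its subject. The labels do not say whether the libraries of a group came from separate embryos, so the p-values below speak only of library-to-library spread.

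Depth ranged over 14361919 to 60672151 fragments per library. Pitx1 itself was at 10.8 to 25.1 RPKM (fragments scaled by gene length and library size) in the 9 KO libraries, against 44.6 to 139 RPKM in the 9 WT libraries, with no overlap at any stage. Which part of the gene is deleted is not given in the sources used here. Genes of the limb mesenchyme, red blood cell, muscle, cartilage and macrophage marker lists were detected in every group, though Ckm was listed at 0 at E9.5 in both genotypes, Matn1 in E9.5 WT, and Nppa in every group. In such bulk samples fewer cells of a type and less RNA per cell cannot be told apart.

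These genes were among the most abundant messages of the hindlimb. In RPKM the median over the 80 genes was 155 in KO and 156 in WT at E9.5, 142 in KO and 138 in WT at E11.5, and 145 in KO and 144 in WT at E12.5. Those medians lay above 95.5% to 96.2% of all genes that reached 1 RPKM in the same group. In every group 53 to 56 of the genes averaged at least 100 RPKM. Together the 80 genes took 0.921% to 1.28% of a library's fragments.

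The levels of subunits within 1 complex spread widely. In the F1 head, Atp5b, the catalytic beta subunit, was the most abundant member of the whole set in all 6 groups, while Atp5c1, the gamma subunit that forms the central shaft, and Atp5d, the delta subunit, were the lowest. Atp5b averaged 1121 ± 42.4 RPKM in KO and 1142 ± 66.0 RPKM in WT at E9.5 (SD, n = 3 each). It averaged 872 ± 86.0 RPKM in KO and 790.6 ± 51.2 RPKM in WT at E11.5, and 803 ± 2.47 RPKM in KO and 783 ± 44.5 RPKM in WT at E12.5. In the membrane part the subunit c gene Atp5g3 was at 683 to 940.4 RPKM over the group means, and Atp5k, which encodes the small subunit e, at 586 to 724 RPKM.

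In complex I, the core subunit gene Ndufs3 was the lowest of its group with means of 33.8 to 37.4 RPKM. The accessory genes Ndufa7, Ndufa3 and Ndufb8 led the rest of complex I, each in at least 1 group, with leading means of 328 to 434 RPKM. In complex III the highest was Uqcrh, the hinge protein gene, with 474 to 554 RPKM, and the lowest was Uqcrc2, a core protein gene, at E9.5 and Uqcrfs1, the Rieske iron-sulphur protein gene, at E11.5 and E12.5. In complex IV, Ndufa4 had group means of 688 to 828 RPKM and Cox4i1 means of 591 to 726 RPKM. A restricted form, Cox8c, known from testis, was listed at 0 in all 18 libraries.

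Some low levels may not stand for low expression. A search of the genes' transcripts in the GENCODE M21 annotation found another gene with at least 97% identity over at least 150 bases for 15 of the 79 genes that could be searched. These were Atp5f1, Atp5g1, Atp5g2, Atp5h, Atp5l, Atp5o, Cox5b, Cox7a2l, Cox7c, Ndufa12, Ndufb4, Ndufs3, Ndufs5, Uqcr11 and Uqcrb, and their values are uncertain, since how shared reads were counted is not given in the sources used here. Cox7c, a common complex IV subunit gene, was at 2.30 to 4.24 RPKM over the group means, Atp5l at 0.858 to 3.24 RPKM and Atp5g2 at 0.356 RPKM or less. Their part in these low levels was not tested.

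At E9.5 none of the 75 genes tested differed between Pitx1 KO and WT at an adjusted p below 0.05 in edgeR's quasi-likelihood test, and DESeq2 and limma called none either. Over all genes the same test called 0.0217% (3 of 13804). Those tools called 0.131% and 0.00724% of all genes. Of the 75 genes, 1 (1.33%) had an unadjusted p below 0.05 in edgeR, beside 4.01% of all genes. The median log2 fold change of the genes was 0.00 (36 positive, 39 negative), and that of all genes was also 0.00. It was 0.10 without WT replicate 1 (66 positive, 9 negative) and -0.08 without WT replicate 3 (11 positive, 64 negative). The summed RPKM of the 63 subunits without near-identical copies was 16540 ± 1064 in KO and 16440 ± 2264 in WT (SD, n = 3 each).

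The gene with the smallest p at E9.5 was Ndufa4l2, a paralog of Ndufa4 known as a hypoxia-response gene. It was at 1.10, 1.22 and 0.498 RPKM in KO, against 2.28, 1.59 and 2.22 RPKM in WT. All KO libraries were lower than all WT libraries, with a log2 fold change of -1.10 ± 0.46 (SE) that did not pass the test (edgeR adjusted p = 0.9987). Without overlap between genotypes, 1 of the 75 genes was lower in KO (Ndufa4l2), beside 4.59% of all genes tested, and 1 was higher (Ndufb4, uncertain through its copies), beside 4.70%. The largest positive fold changes after Ndufb4 (0.35 ± 0.24 SE) were those of Ndufc1 (0.19 ± 0.15) and Ndufb11 (0.18 ± 0.11), both accessory complex I genes, and neither passed the test.

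At E11.5 more genes of the set had a positive than a negative fold change in KO, by amounts that did not pass the test gene by gene and that were smaller without KO replicate 2. Of 74 genes tested, 52 had a positive and 22 a negative log2 fold change, with a median of 0.10, while the median over all genes was -0.01. Without KO replicate 2 the counts were 43 and 31 and the median 0.02, and without WT replicate 2 they were 47 and 28 with a median of 0.06. At an adjusted p below 0.05 in edgeR 1 gene was called, Ndufs5, which was lower in KO, beside 1.96% of all genes (286 of 14601), of which 1.01% were lower and 0.945% higher. The count was 0 without KO replicate 2, 3 without KO replicate 1 (Ndufs5, Atp5j and Uqcr10), and 2 without WT replicate 3 (Ndufs5 and Atp5j). At an unadjusted p below 0.05 there were 20 of the 74 (27.0%), beside 22.2% of all genes. By group, 10 of 11 common complex IV genes were positive (median 0.20), as were 21 of 28 accessory complex I genes (median 0.10), 6 of 8 complex III genes (median 0.15), 4 of 5 genes of the F1 head (median 0.14) and 6 of 9 genes of the stalk and membrane part (median 0.14). The core complex I genes were 3 positive and 4 negative with a median of -0.03. Without KO replicate 2 the positive genes were 9 of 11 in common complex IV (median 0.18), 18 of 28 in accessory complex I (0.02), 4 of 8 in complex III (0.07), 3 of 5 in the F1 head (0.06), 6 of 9 in the stalk and membrane part (0.04) and 1 of 7 in core complex I (-0.15).

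**Figure D1:**
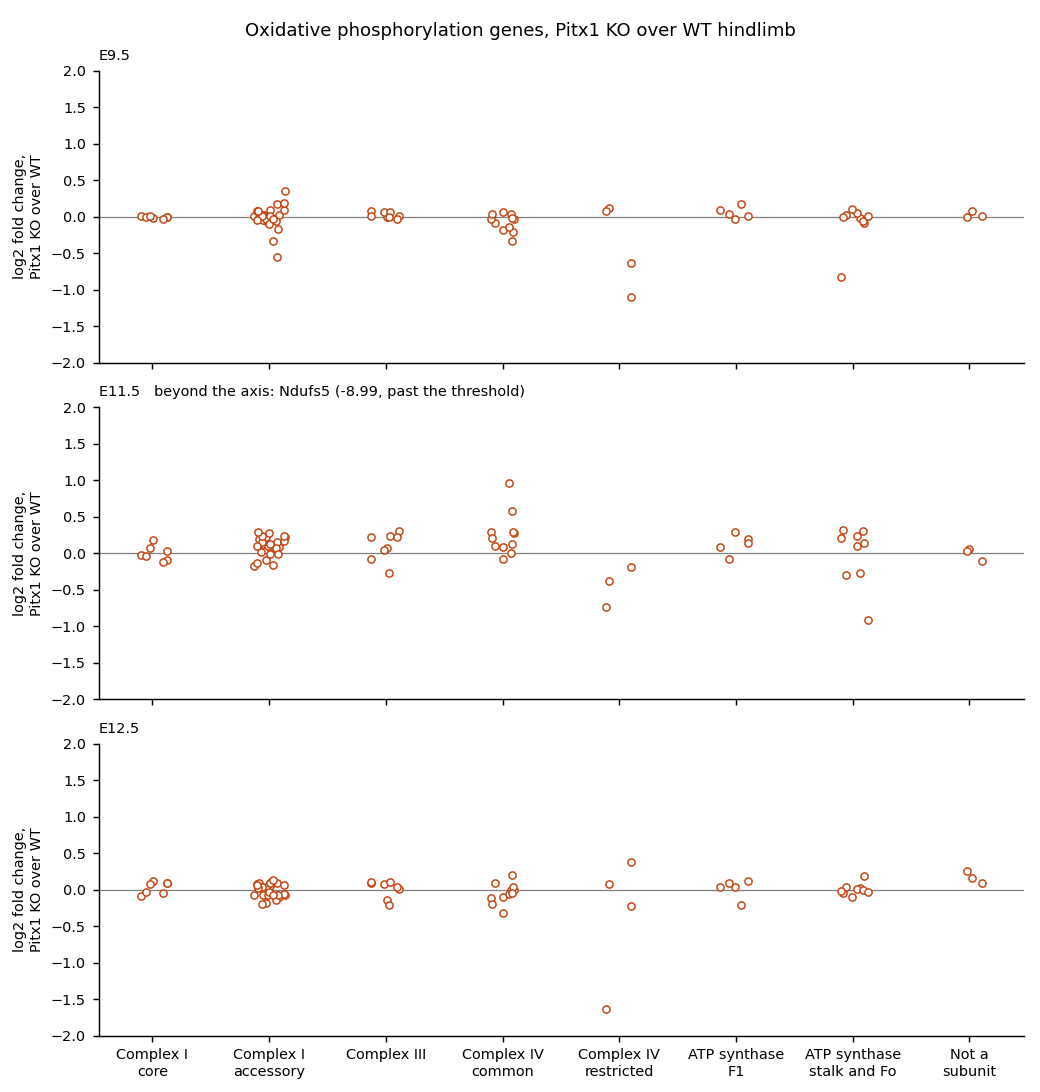
Log2 fold change of Pitx1 KO over WT for each gene tested, by complex (horizontal axis) and stage (panels, E9.5 at the top). Each open point is 1 gene with an adjusted p of at least 0.05 in edgeR, the grey line is 0, and Ndufs5 at E11.5 (-8.99), the 1 gene past the threshold, lies beyond the axis and is written above its panel. At E11.5 the points of the common complex IV genes lie mostly above 0, with 10 of 11 positive (9 of 11 without KO replicate 2), and at E9.5 and E12.5 they lie on both sides.

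The genes described next were short of the threshold at E11.5 and belong to ATP synthase and complex IV. Atp5j, which encodes the coupling factor 6 subunit of the ATP synthase stalk, was at 274, 317 and 291 RPKM in KO, against 236, 217 and 254 RPKM in WT. Every KO library was above every WT library, with a log2 fold change of 0.32 ± 0.08 (SE) and an adjusted p of 0.0712 in edgeR, which was 0.0496 without KO replicate 1 and 0.0459 without WT replicate 3. Atp5c1 was at 293, 344 and 298 RPKM in KO, against 255, 234 and 273 RPKM in WT. Cox6c, a small structural subunit gene of complex IV, was at 312, 386 and 340.4 RPKM in KO, against 279, 278 and 295 RPKM in WT. Both were also higher in each KO library than in any WT library. DESeq2 called 5 of the 74 genes (6.76%), namely these 3 as higher, and Cox6b2 and Ndufs5 as lower, beside 8.90% of all genes.

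Counted over all tested genes of the set, 16 (21.6%) were higher in every KO library than in every WT library at E11.5, beside 13.7% of all genes. They were Atp5a1, Atp5c1, Atp5j, Atp5k, Cox5a, Cox6c, Cox7c, Cox8a, Ndufa1, Ndufa9, Ndufb3, Ndufb9, Ndufs1, Uqcrc2, Uqcrfs1 and Uqcrh. Another 3 (4.05%) were lower without overlap (Cox4i2, Cox6b2 and Ndufs5), beside 14.0% of all genes. The summed RPKM of the 63 subunits without copies was 15150 ± 1530 in KO and 13700 ± 1038 in WT (SD, n = 3 each). Those sums overlapped between genotypes, and depth also differed, with 44986881 to 60672151 fragments per KO library and 38770845 to 40973174 per WT library. The part of depth was not tested.

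Cox6b2, known as the testis form of subunit VIb beside the common Cox6b1, had the most negative fold change in KO after Ndufs5 and Atp5l and was short of the threshold. It was at 19.0, 20.8 and 14.7 RPKM in KO, against 30.8, 25.0 and 34.3 RPKM in WT. The groups did not overlap, and the log2 fold change was -0.74 ± 0.20 (SE), with an adjusted p of 0.0750 in edgeR. Cox6b1 averaged 518 ± 51.6 RPKM in KO and 516 ± 22.4 RPKM in WT (SD, n = 3 each). Cox6b2 made up 3.39% ± 0.494 of the RPKM of the pair in KO and 5.48% ± 0.673 in WT. When all 18 libraries shared 1 fit, Cox6b2 was called (adjusted p = 0.0272 in edgeR) and Ndufs5 was not (adjusted p = 0.132).

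Ndufs5, a gene for an accessory subunit of complex I, has a near-identical copy elsewhere in the genome. BC002163, annotated as a processed pseudogene, carries the whole coding sequence of Ndufs5 with 2 differences in 318 bases (99.4% identity), T81C and A105G, where the Ndufs5 base comes first and positions are counted from 1 at the A of its start codon. The pair is printed below over coding bases 49 to 108, where both differences fall, from the GENCODE transcripts on GRCm38 (chromosome 4 for Ndufs5 and chromosome 16 for BC002163), with the 2 differing bases in capitals.
Ndufs5: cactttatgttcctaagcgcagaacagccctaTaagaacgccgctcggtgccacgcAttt
BC002163: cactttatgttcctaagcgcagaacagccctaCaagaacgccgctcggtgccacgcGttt
A fragment that covers neither capital within this coding sequence reads the same for both genes.

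At E11.5 Ndufs5 was listed at 0.000932, 0.103 and 0.00160 RPKM in KO, against 41.3, 9.63 and 19.6 RPKM in WT, a log2 fold change of -8.99 ± 0.95 (SE) with an adjusted p of 0.0153 in edgeR. The adjusted p was 0.119 without KO replicate 2 and 0.0911 without KO replicate 3. Near-zero values were not confined to KO. At E9.5 it was at 54.2, 0.0398 and 0 RPKM in KO, against 0, 47.0 and 23.5 RPKM in WT, and at E12.5 at 29.4, 15.2 and 13.4 RPKM in KO, against 0.383, 52.8 and 0.235 RPKM in WT. BC002163 held 246 to 2584 fragments in every library. Fragments of Ndufs5 and BC002163 summed to 26.6, 42.6 and 27.2 CPM (fragments scaled to a common library total) in KO at E11.5, against 34.5, 29.0 and 30.6 CPM in WT. Those sums overlapped, and the summed pair differed by a log2 of 0.09 ± 0.19 (SE) with an adjusted p of 0.820 in edgeR, a test added after the data were seen. Fragment values of Ndufs5 were not whole in 16 of 18 libraries, which among the 80 genes was otherwise found only for Cox4i2 in 1 library.

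Cox7b, a small subunit gene of complex IV, also fell into separate levels that did not follow genotype. It was at 190.0, 174 and 191 RPKM in KO, against 262, 190.0 and 161 RPKM in WT at E9.5. At E11.5 it was at 333, 394 and 161 RPKM in KO, against 149, 145 and 164 RPKM in WT, and at E12.5 at 359, 156 and 317 RPKM in KO, against 342, 175 and 346 RPKM in WT. At the later 2 stages each library was either at 145 to 175 RPKM or at 317 to 394 RPKM. The log2 fold change at E11.5 was 0.96 ± 0.35 (SE) with an adjusted p of 0.206 in edgeR, and 1.26 with an adjusted p of 0.0019 without KO replicate 3, the 1 KO library at the lower level. No copy of Cox7b met the search criterion, and the cause was not tested.

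**Figure D2:**
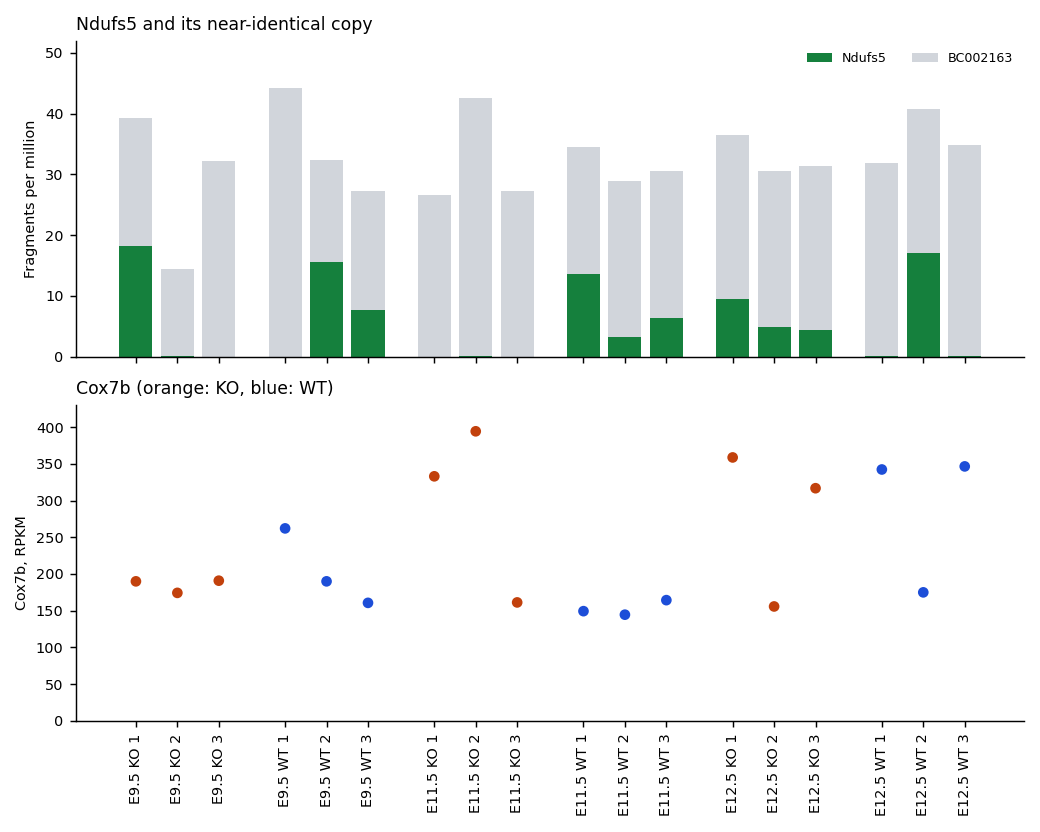
Top: CPM for Ndufs5 (green) and its copy BC002163 (grey), stacked, in each of the 18 libraries. Bottom: RPKM of Cox7b in the same libraries (orange KO, blue WT). Ndufs5 has almost no fragments in all 3 KO libraries at E11.5 and in 5 libraries of other groups, while the stacked sum at E11.5 spans 26.6 to 42.6 CPM in KO and 29.0 to 34.5 CPM in WT.

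At E12.5 no gene of the 75 tested differed between KO and WT at an adjusted p below 0.05 in edgeR, DESeq2 or limma, beside 0.0138% of all genes in edgeR (2 of 14494), 2.92% in DESeq2 and 0.0276% in limma. There were 6 genes (8%) with an unadjusted p below 0.05 in edgeR, beside 15.1% of all genes. The median log2 fold change was 0.02, with 41 positive and 34 negative, and that of all genes was 0.00. It was -0.03 without KO replicate 1 or without WT replicate 3. Without overlap, 8 genes (10.7%) were higher in KO, beside 11.4% of all genes, and 4 (5.33%) were lower, beside 10.3%. The higher ones were Atp5a1, Atp5c1, Cox4i1, Cox7a2l, Ndufa9, Ndufb11, Ndufs1 and Uqcrc2, and the lower ones Atp5o, Cox6a2, Ndufa1 and Uqcrb. The summed RPKM of the 63 subunits without copies was 14650 ± 449 in KO and 14730 ± 601 in WT (SD, n = 3 each).

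Over the whole set the largest positive fold changes at E12.5 were those of Cox7a1 (0.38 ± 0.42 SE), Atp5sl (0.26 ± 0.11) and Cox7c (0.20 ± 0.51), and the largest negative ones after Cox6a2 those of Cox5b (-0.32 ± 0.13) and Cox6b2 (-0.22 ± 0.14), none past the test. Ndufa1, which encodes a small membrane-arm subunit of complex I, had opposite order at the 2 later stages. It was at 129, 140 and 126 RPKM in KO, against 109, 108 and 120 RPKM in WT at E11.5, and at 122, 126 and 120 RPKM in KO, against 136, 150 and 132 RPKM in WT at E12.5. The change of the KO effect between those stages was -0.42 ± 0.11 (log2, SE) with an adjusted p of 0.294 in edgeR.

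The difference of the KO effect between stages was tested for every gene. Neither E12.5 minus E11.5 (76 genes tested) nor E11.5 minus E9.5 (75 genes tested) had a gene of the set past the threshold in edgeR, beside 0.00653% of all genes in the first and 0.026% in the second (0.013% in each direction). At an unadjusted p below 0.05 there were 12 and 3 genes. No share of all genes is set beside these counts, so they are not read as high or low. DESeq2 called 1 gene in the first of these, Ndufs5, and 0 in the second, and edgeR called Ndufs5 in the first without E12.5 WT replicate 2 (adjusted p = 0.00297). All 11 common complex IV genes had a negative difference for E12.5 minus E11.5 (median -0.28), 8 of 11 without E11.5 KO replicate 2 (median -0.20) or without E12.5 WT replicate 2 (median -0.29), and these values share the E11.5 libraries with the comparison at E11.5. The median over all genes of the set was -0.08 for E12.5 minus E11.5 and 0.10 for E11.5 minus E9.5. These were -0.02 and 0.02 without E11.5 KO replicate 2, and the second was -0.02 without E9.5 WT replicate 1.

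Of the 8 tissue-restricted forms, 5 were tested between E11.5 and E12.5. Of these, 3 were called higher at E12.5 in both genotypes, beside 20.4% of all genes in KO and 17.1% in WT. With each stage in a fit of its own edgeR called 0 between genotypes (Cox6b2 at E11.5 was called when all 18 libraries shared a fit). Cox6a2, the heart and skeletal muscle form of subunit VIa, had 0 fragments in all 6 libraries at E9.5, which allows up to 0.0601 CPM in KO and 0.0352 in WT over the group's 3 libraries, counting error only. At E11.5 it had 0 in KO and 4 fragments in 1 WT library. At E12.5 it was at 1.02, 0.485 and 0.642 RPKM in KO (11, 7 and 7 fragments), against 1.28, 1.40 and 3.77 RPKM in WT (15, 18 and 72 fragments). All KO libraries were lower than all WT libraries at E12.5, and the log2 fold change of -1.63 ± 0.56 (SE) did not pass the test (adjusted p = 0.269 in edgeR). Per total fragments the KO level was 0.286 of the WT level, with a 95% interval of 0.177 to 0.446 that covers counting error only. WT replicate 3 held 72 of the 105 WT fragments, and without it the ratio was 0.513 (0.292 to 0.889) and the log2 fold change -0.92.

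Between stages Cox6a2 was called in both genotypes. It did not pass the low-count filter at E11.5 alone and entered this fit through its fragments at E12.5, where it was higher. The calls are therefore not independent of that filter. Without the filter edgeR called it in both genotypes too. Taking a floor of 3 fragments over the group, E12.5 KO was at least 18.4-fold higher than E11.5 KO, and E12.5 WT was 34.6 times E11.5 WT (95% counting interval 13.1 to 129), or 19.3 times without E12.5 WT replicate 3. The KO bound was 11.7 without E11.5 KO replicate 1 or 2, where the floor falls on fewer libraries. Adjusted p-values in edgeR were 0.00306 in KO and 0.00314 in WT. Its common counterpart Cox6a1 was at 306 ± 14.8 RPKM in KO and 327 ± 36.6 RPKM in WT at E12.5 (SD, n = 3 each).

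Cox8b, the muscle form of subunit VIII, had fewer fragments and did not pass the low-count filter of the main test. At E9.5 it had 2 fragments (0.554 RPKM) in WT replicate 2 and 0 in the other 5 libraries, and at E11.5 it had 0 in both genotypes. At E12.5 it was at 1.08, 0.603 and 1.07 RPKM in KO (4, 3 and 4 fragments), against 0.990, 2.48 and 4.10 RPKM in WT (4, 11 and 27 fragments). The genotypes overlapped, and the KO level per total fragments was 0.315 of the WT level (95% counting interval 0.146 to 0.622), or 0.496 without WT replicate 3 (0.206 to 1.16). Against the floor of 3 fragments, E12.5 was at least 8.10-fold higher than E11.5 in KO and at least 18.5-fold higher in WT. The lowest bounds without 1 library were 5.13 in KO and 11.7 in WT, the first without E11.5 KO replicate 2 and the second without E12.5 WT replicate 3. Without the low-count filter edgeR called this stage difference in KO (adjusted p = 0.00949) and in WT (adjusted p = 0.00354), and did not call the genotypes at E12.5 (adjusted p = 0.408). Cox8a, its common counterpart, was at 296 ± 27.6 RPKM in KO and 338 ± 66.1 RPKM in WT at E12.5.

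Skeletal muscle markers moved beside these 2 genes. The summed RPKM of 12 such markers (among them Myod1, Myog, Acta1 and Mylpf) was 36.1, 22.2 and 18.8 in KO, against 153, 210 and 57.4 in WT at E11.5. At E12.5 it was 455, 567 and 1009 in KO, against 854, 1214 and 1348 in WT, overlapping between genotypes. The 5 markers of cardiac muscle summed to 12.6, 21.6 and 46.5 RPKM in KO and 48.4, 82.4 and 92.3 RPKM in WT at E12.5, with Nppa listed at 0. Most of each sum was Myl4 alone, at 10.65, 20.2 and 44.05 RPKM in KO and 45.6, 80.7 and 90.2 RPKM in WT. Of the 3 cardiac markers tested, 2 had a negative fold change in KO and 1, Tnni3, a positive one. The part of muscle cells in the Cox6a2 and Cox8b values was not tested.

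Cox7a1, the third muscle form, was unlike the other 2 in being present in every library from E9.5 on, at 1.21 to 5.49 RPKM. At E11.5 it was at 2.24, 2.21 and 1.21 RPKM in KO, against 1.34, 2.94 and 2.265 RPKM in WT. At E12.5 it was at 4.49, 3.16 and 5.49 RPKM in KO, against 3.89, 4.21 and 2.09 RPKM in WT. Per total fragments E12.5 was 2.21 times E11.5 in KO (95% counting interval 1.49 to 3.28) and 1.44 times in WT (0.938 to 2.20). The genotypes overlapped at each stage, and no contrast passed the test. Its common counterpart Cox7a2 was at 209 ± 29.6 RPKM in KO and 205 ± 30.9 RPKM in WT at E12.5.

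Cox4i2, the form of subunit IV known from lung and from hypoxic cells, rose at E12.5 in both genotypes. It was at 25.5, 25.9 and 20.2 RPKM in E12.5 KO, against 9.73, 6.96 and 8.11 RPKM in E11.5 KO. In WT it was at 25.1, 19.4 and 23.3 RPKM at E12.5, against 10.7, 11.6 and 10.03 RPKM at E11.5. Every E12.5 library was above every E11.5 library. The log2 fold change was 1.45 ± 0.17 (SE) in KO with an adjusted p of 1.1e-04, and 1.001 ± 0.17 in WT with an adjusted p of 0.00101, both in edgeR. Its share of the RPKM with Cox4i1 was 3.21% ± 0.462 in KO and 3.25% ± 0.496 in WT at E12.5, and 1.30% ± 0.318 in KO and 1.81% ± 0.301 in WT at E11.5. Summed RPKM of 10 pericyte and smooth muscle markers was 110.5 to 149 in KO and 122 to 149 in WT at E12.5, against 61.3 to 68.6 in KO and 85.7 to 92.2 in WT at E11.5. Most of that rise was Acta2, at 40.6 to 69.5 RPKM in KO and 49.5 to 68.2 in WT at E12.5. At E11.5 Acta2 was at 1.67 to 3.81 RPKM in KO and 15.1 to 19.9 in WT. Of 9 such markers tested, 7 rose and 2 fell in each genotype, and Notch3 was called lower in WT. The part of pericytes and smooth muscle cells was not tested.

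Cox6b2 also rose at E12.5. In KO it was at 34.2, 47.1 and 36.9 RPKM at E12.5, against 19.0, 20.8 and 14.7 RPKM at E11.5 (log2 1.04 ± 0.18, SE, adjusted p = 6.3e-04 in edgeR). In WT it was at 44.9, 47.5 and 43.6 RPKM at E12.5, against 30.8, 25.0 and 34.3 RPKM at E11.5 (log2 0.53 ± 0.17, adjusted p = 0.0323 in edgeR). The WT call was lost without any 1 of 5 WT libraries (adjusted p = 0.0529 to 0.106, all but E11.5 replicate 3). The KO change was not shown to differ from the WT change (difference 0.51 ± 0.25, adjusted p = 0.492 in edgeR). Cox6b2 was the single gene of the set called higher in E11.5 WT than in E9.5 WT (log2 0.55 ± 0.20, adjusted p = 0.0332 in edgeR), a difference of opposite sign to those of the 34 genes called lower there. That call was lost without E9.5 WT replicate 2 or 3 or E11.5 WT replicate 1 or 3 (adjusted p = 0.0674 to 0.125). The 4 germ cell markers summed to 0.407 to 0.705 RPKM in KO and 0.362 to 0.505 RPKM in WT at E12.5, against 0.575 to 1.56 RPKM in KO and 0.407 to 0.780 RPKM in WT at E11.5.

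**Figure D3:**
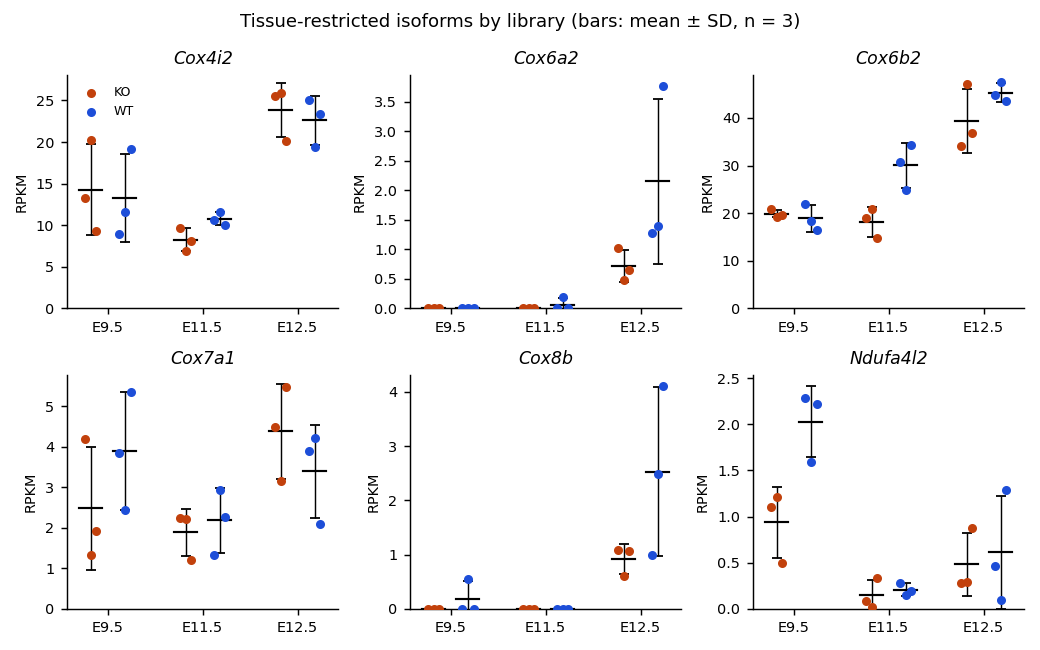
RPKM of 6 tissue-restricted complex IV genes in each library (points, orange KO and blue WT), with the mean and SD of the 3 libraries of a group (black), in stage order on each axis. Axes start at 0 and differ between panels. Cox6a2 and Cox8b have fragments in every library at E12.5 and in 1 library each at the earlier stages, Cox4i2 and Cox6b2 are higher at E12.5 than at E11.5 in both genotypes, and Ndufa4l2 is highest at E9.5.

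The remaining restricted forms were low. Ndufa4l2 fell at E11.5, where it was at 0.0819, 0.0211 and 0.338 RPKM in KO and 0.281, 0.147 and 0.190 RPKM in WT. Against its E9.5 levels of 0.498 to 1.22 RPKM in KO and 1.59 to 2.28 RPKM in WT, the log2 fold change was -2.80 ± 0.75 (SE) in KO and -3.36 ± 0.72 in WT, with adjusted p-values of 0.00629 and 0.00129 in edgeR. Ndufa4l2 did not pass the low-count filter at E11.5 alone and entered this fit through its fragments at E9.5, where it was higher. Its calls are therefore not independent of that filter. Without the filter edgeR called it in both genotypes too. Stage and dissection cannot be told apart at this step. Cox7b2 stayed at 0.617 RPKM or less in all libraries. Atp5g1, 1 of 3 genes that encode the same mature subunit c, was at 11.1 to 36.0 RPKM. It made up 2.15% to 2.82% of the RPKM of Atp5g1 and Atp5g3 together over the group means, with Atp5g2 left out. That share rests on Atp5g1 values made uncertain by copies.

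Between E11.5 and E12.5 more genes of the set were called in KO than in WT, as was also so over all genes. In both genotypes the share of the set called was below that of all genes. The share called lower in KO was near that of all genes. In KO 24 of 76 genes were called in edgeR, 8 higher and 16 lower at E12.5, beside 41.5% of all genes (20.4% higher and 21.1% lower). Without E11.5 KO replicate 2 the KO calls were 11 higher and 10 lower. In WT 9 of 76 were called, 6 higher and 3 lower, beside 33.4% of all genes (17.1% higher and 16.3% lower). The median log2 fold change was -0.08 in KO and 0.01 in WT, beside 0.01 and 0.00 for all genes. The KO median was 0.02 without E11.5 KO replicate 2, and the WT median was -0.03 without E11.5 WT replicate 2 and -0.02 without E12.5 WT replicate 2. Of the called genes 7 were shared (29.2% of the KO calls and 77.8% of the WT calls), namely Cox4i2, Cox5a, Cox6a2, Cox6b2, Ndufs1, Ndufv3 and Uqcrfs1. The difference between the genotypes' changes is the difference of the KO effect given above, for which no gene was called in edgeR.

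The falls at E12.5 in KO included 5 of the 11 common complex IV genes (Cox5a, Cox5b, Cox6c, Cox7a2 and Cox8a), against 1 in WT (Cox5a). Over all genes 21.1% were called lower in KO and 16.3% in WT. The falls of the other named genes are given below. The KO calls of Cox5b and Cox7a2 were lost without E12.5 KO replicate 3 (adjusted p = 0.0543 and 0.0743 in edgeR), and that of Cox7a2 also without E11.5 KO replicate 2 (0.0697). Cox5a, a nuclear subunit gene of the enzyme's matrix side, was at 190, 174 and 163 RPKM in E12.5 KO, against 268, 317 and 273 RPKM in E11.5 KO. In WT it was at 204, 173 and 150 RPKM at E12.5, against 244, 205 and 263 RPKM at E11.5. In both genotypes every E12.5 library was below every E11.5 library, with log2 fold changes of -0.78 ± 0.12 (SE, adjusted p = 3.6e-04) in KO and -0.50 ± 0.12 (adjusted p = 0.00668) in WT by edgeR. RPKM is set side by side here across tables that were normalized separately, and the tests rest on raw fragments scaled in 1 fit.

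Uqcrfs1, which encodes the Rieske subunit that passes electrons within complex III, fell likewise. It was at 113, 108 and 109 RPKM in E12.5 KO, against 140, 152 and 149 RPKM in E11.5 KO, and at 113, 98.2 and 94.3 RPKM in E12.5 WT, against 122, 117 and 136 RPKM in E11.5 WT. The log2 fold changes were -0.50 ± 0.08 (SE) in KO and -0.36 ± 0.08 in WT, with adjusted p-values of 3.6e-04 and 0.00354 in edgeR. Ndufs1, the largest core subunit gene of complex I, fell by 0.28 (SE 0.06) in KO and by 0.21 (SE 0.06) in WT on the log2 scale, and the WT call was lost without E11.5 WT replicate 3 (adjusted p = 0.0553 in edgeR). Cox8a was called in KO alone (-0.60 ± 0.12, adjusted p = 0.0020 in edgeR), at 286, 326 and 274 RPKM in E12.5 KO, against 404, 439 and 432 RPKM in E11.5 KO.

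Rises at E12.5 outside the restricted forms were all in accessory genes of complex I. Ndufv3, an accessory gene of the electron-input module, was at 158, 169 and 150 RPKM in E12.5 KO, against 114.8, 139 and 113 RPKM in E11.5 KO (log2 0.43 ± 0.08, SE). In WT it was at 156, 195 and 171 RPKM at E12.5, against 136, 136 and 142 RPKM at E11.5 (0.34 ± 0.08). Ndufa7, Ndufa8 and Ndufa11 rose in KO by 0.35, 0.22 and 0.30 on the log2 scale, and all 3 calls were lost without E11.5 KO replicate 1 (adjusted p = 0.0527, 0.155 and 0.151 in edgeR) or E12.5 KO replicate 2 (0.0580, 0.0677 and 0.0719). The calls of Ndufa8 and Ndufa11 were also lost without E11.5 KO replicate 3, E12.5 KO replicate 1 or 3, or E12.5 WT replicate 1 (0.0508 to 0.137), that of Ndufa8 without E12.5 WT replicate 2 (0.0520) and that of Ndufa11 without E11.5 WT replicate 3 (0.0523). Ndufa3 and Ndufa1 rose in WT by 0.34 and 0.24, and the Ndufa1 call was lost without E12.5 WT replicate 2 (adjusted p = 0.125) or E11.5 WT replicate 1 or 2 (0.0875 and 0.0807). The KO call of Ndufs5 (8.57 ± 2.49) came with the near-zero E11.5 values described above, and with BC002163 summed in, its value was -0.08.

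**Figure D4:**
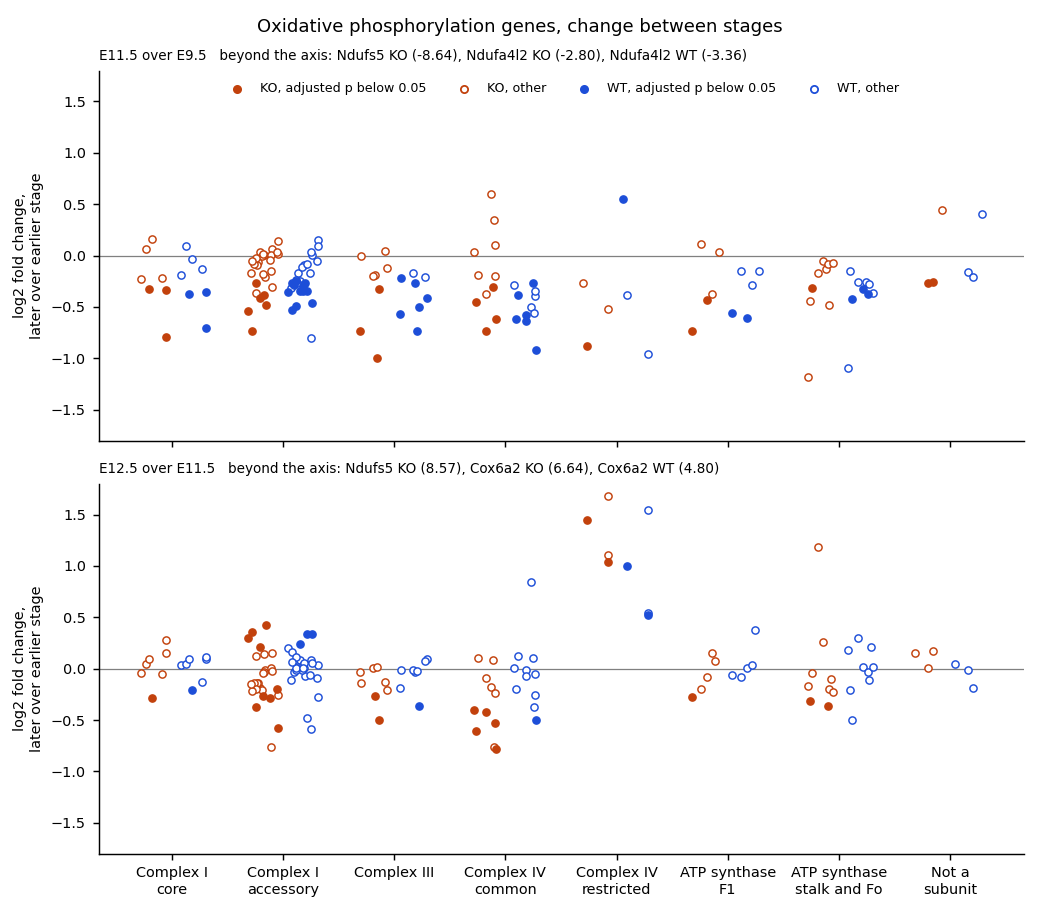
Log2 fold change between stages for each gene tested, by complex, with KO (orange) left of WT (blue). The upper panel is E11.5 over E9.5, where the dissected tissue also differs, and the lower panel is E12.5 over E11.5. Filled points passed an adjusted p below 0.05 in edgeR, and values beyond the axis are written above each panel. In the upper panel most points lie below 0 in both genotypes, and in the lower panel the filled points of common complex IV lie below 0.

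Against the E9.5 hindlimb field and trunk, E11.5 hindlimbs had lower levels across all 4 complexes. In KO 24 of 75 genes were called in edgeR, all lower, beside 50.5% of all genes (25.0% higher and 25.5% lower). In WT 35 of 75 were called, 34 lower and 1 higher, beside 55.9% of all genes (28.3% higher and 27.6% lower). The WT count was 20 without E9.5 WT replicate 1 and 18 without E11.5 WT replicate 2. The median was -0.20 in KO and -0.28 in WT on the log2 scale, with 57 of 75 and 68 of 75 genes negative, while the median of all genes was 0.01 in both. The KO median was -0.13 without E9.5 KO replicate 1, and the WT median was -0.18 without E9.5 WT replicate 1. In total 20 genes were called in both genotypes, 83.3% of the KO calls and 57.1% of the WT calls. Stage, table and dissection cannot be told apart here.

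The falls took in subunits of each complex. Uqcrq, a small subunit gene of complex III, was at 162, 232 and 180 RPKM in E11.5 KO, against 402, 290 and 378 RPKM in E9.5 KO, and at 253, 200 and 240 RPKM in E11.5 WT, against 426, 354 and 296 RPKM in E9.5 WT. Its log2 fold change was -0.998 ± 0.17 (SE) in KO and -0.74 ± 0.17 in WT, with adjusted p-values of 4.0e-04 and 0.00275 in edgeR. Cox5a fell by 0.62 (SE 0.10) in KO and by 0.92 (SE 0.10) in WT, and so fell at both steps of the series in both genotypes. Atp5b fell by 0.44 (SE 0.09) in KO and by 0.60 (SE 0.09) in WT. Ndufs7, a core complex I gene that carries an iron-sulphur cluster, fell by 0.80 (SE 0.14) in KO and by 0.71 (SE 0.14) in WT. Uqcrfs1 and Cox8a also fell at this step in both genotypes.

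**Figure D5:**
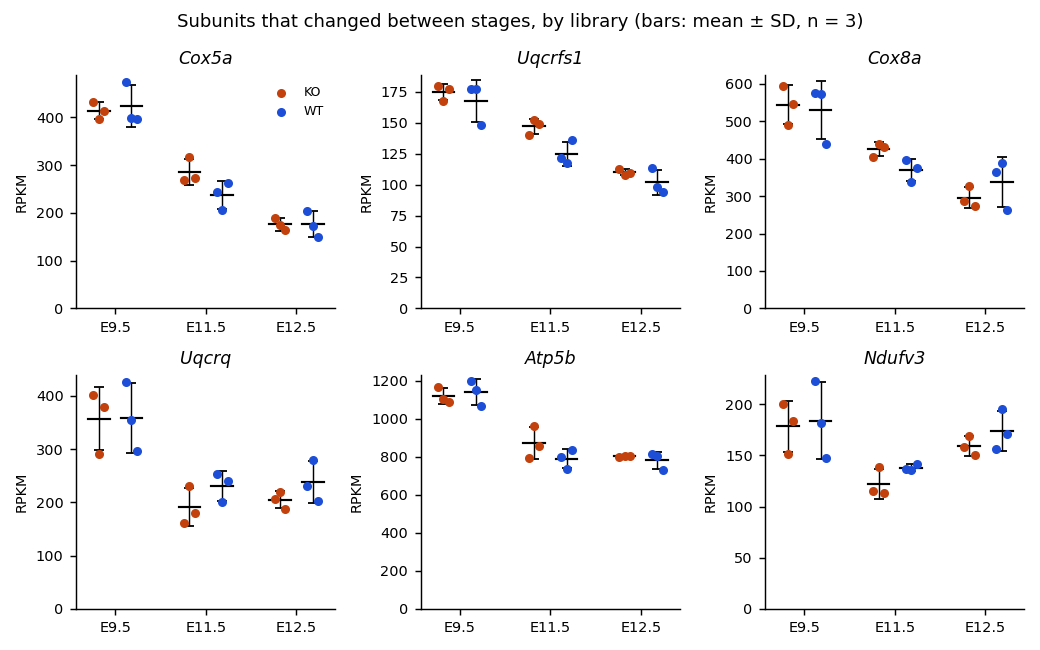
RPKM of 6 subunit genes that changed between stages, in each library (points, orange KO and blue WT), with the mean and SD of the 3 libraries of a group (black). Axes start at 0. Cox5a and Uqcrfs1 step down at each stage in both genotypes, Uqcrq and Atp5b step down from E9.5 and are nearly flat from E11.5 to E12.5, and Ndufv3 is lowest at E11.5.

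Red blood cell genes varied strongly between libraries and can take a share of the fragments. Their summed RPKM was 22670 to 31330 in KO and 14050 to 25640 in WT at E9.5, 10750 to 21030 in KO and 10840 to 26000 in WT at E11.5, and 8783 to 17020 in KO and 5214 to 17140 in WT at E12.5. The genotypes overlapped at each stage. Cartilage markers summed to 111 to 156 RPKM in KO and 199 to 262 RPKM in WT at E11.5. Macrophage markers summed to 6.65 to 10.8 RPKM in KO and 11.96 to 15.7 RPKM in WT at the same stage. Their part in the small positive fold changes of the common subunits at E11.5 was not tested.

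Genes outside the symbol rule that work beside or within these complexes also had no edgeR call between genotypes. They comprised the 4 subunits of complex II, 3 electron carriers (cytochrome c, its testis form and cytochrome c1) and 24 assembly factors. The other lists were 11 regulators of mitochondrial genes and 13 enzymes of the TCA cycle. Cytochrome c1 is itself a subunit of complex III, and Ndufab1, listed as an assembly factor, is also an accessory complex I gene. In KO against WT edgeR called 0 genes of these lists at any stage. Unadjusted p was below 0.05 for 1 of 54 at E9.5, 20 of 55 at E11.5 and 2 of 55 at E12.5, beside 4.01%, 22.2% and 15.1% of all genes. DESeq2 called 5 at E11.5, beside 8.90% of all genes, and 0 at the other stages, and limma on log2(RPKM + 1) called 1 at E11.5, beside 0.808%, and 0 at the others. At E11.5 their median log2 fold change was 0.12, with 42 of 55 positive. The largest at E11.5 was that of Cyct, the testis form of cytochrome c (1.81, not called in edgeR). It was at 1.46, 1.97 and 1.39 RPKM in KO, against 0.371, 0.299 and 0.699 RPKM in WT. Among common genes the largest was that of Cycs, cytochrome c, with 0.98 ± 0.24 (SE) and an adjusted p of 0.0608 in edgeR. Its levels were low, at 2.51, 3.64 and 3.24 RPKM in KO, against 1.14, 1.505 and 2.10 RPKM in WT. The search for near-identical copies did not cover the genes of these lists, so the values of Cycs and Cyct are uncertain.

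Between stages some of these genes were called. At E12.5 against E11.5, beside 41.5% of all genes in KO and 33.4% in WT, assembly factors had 10 lower and 0 higher of 24 in KO (41.7%), and 1 lower and 1 higher in WT (8.33%). TCA enzymes had 6 lower and 1 higher of 13 in KO (53.8%), and 5 lower in WT (38.5%), and complex II had 1 lower of 4 in KO (Sdhd) and 0 in WT. Cycs, for which copies were not searched, fell by 1.24 (SE 0.26) in KO, to 1.685, 1.18 and 1.33 RPKM at E12.5. At E11.5 against E9.5, beside 50.5% of all genes in KO and 55.9% in WT, assembly factors had 9 lower in KO (37.5%), and 12 lower and 1 higher in WT (54.2%). TCA enzymes had 8 lower and 1 higher in KO (69.2%) and 10 lower in WT (76.9%). Complex II had 0 called in KO and 2 lower in WT at that step.

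The regulators moved in both directions. Ppargc1a, a coactivator that drives mitochondrial biogenesis, was at 2.31, 1.53 and 1.78 RPKM in E11.5 KO, against 0.251, 0.330 and 0.412 RPKM in E9.5 KO. In WT it was at 1.67, 1.93 and 1.58 RPKM at E11.5, against 0.165, 0.193 and 0.251 RPKM at E9.5. All E11.5 libraries were above all E9.5 libraries, with log2 fold changes of 2.44 ± 0.24 (SE, adjusted p = 2.5e-06) in KO and 3.03 ± 0.25 (adjusted p = 3.5e-07) in WT by edgeR. Pprc1, a related coactivator, fell by 0.99 (SE 0.12) in KO and by 0.95 (SE 0.12) in WT. At E12.5 against E11.5, Yy1, Gabpa (an ETS-family factor subunit known to bind promoters of such genes) and Tfam (the mitochondrial genome's packaging and transcription factor) fell in both genotypes, by 0.58, 0.51 and 0.44 in KO and by 0.44, 0.32 and 0.35 in WT. Ppargc1a was also called lower at that step in both genotypes. It was at 1.37, 1.61 and 1.34 RPKM in E12.5 KO and at 1.48, 1.26 and 1.26 RPKM in E12.5 WT, and in KO the stages overlapped. Of 11 regulators, 3 were called higher and 2 lower in KO and 1 higher and 4 lower in WT at E11.5 against E9.5 (45.5% in each genotype, beside 50.5% and 55.9% of all genes). At E12.5 against E11.5, 1 was higher and 5 lower in KO (54.5%, beside 41.5%) and 5 were lower in WT (45.5%, beside 33.4%).

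Promoter sequences were compared for a muscle form with fragments in every library at E12.5 and for common forms. RefSeq promoter entries (GRCm38.p6) were matched to 66 of the 80 genes, with 1 window per gene. The 250 bases before the start were searched on both strands for 3 motifs, namely the NRF1 half-site GCGCATG, the ETS core CCGGAAG, and the E-box CAGCTG known from muscle genes. Of 59 common subunit promoters 9 (15.3%) held the NRF1 half-site, beside 3.32% of 27025 promoters of all genes, and 10 (16.9%) held the ETS core, beside 7.05%. The E-box stood in 5 of the 59 (8.47%), beside 12.8% of all. Of 4 restricted forms with an entry, Cox8b alone held any of the 3, an E-box. The Cox8b sequence and those of its counterpart Cox8a and of Cox6a1, the common counterpart of Cox6a2, are shown with the matches in capitals. These are an E-box in Cox8b, and in Cox6a1 a pair of NRF1 half-sites that overlap on opposite strands and an ETS core on the strand opposite to the one printed. The windows lie at chr7:140900447-140900696, chr19:7217617-7217866 and chr5:115348959-115349208, in that order, all on the minus strand.
Cox8b: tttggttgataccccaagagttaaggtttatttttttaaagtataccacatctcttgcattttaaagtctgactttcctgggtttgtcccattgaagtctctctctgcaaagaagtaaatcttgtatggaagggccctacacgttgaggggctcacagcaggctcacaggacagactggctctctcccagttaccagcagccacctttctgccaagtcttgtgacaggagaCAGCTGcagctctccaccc
Cox8a: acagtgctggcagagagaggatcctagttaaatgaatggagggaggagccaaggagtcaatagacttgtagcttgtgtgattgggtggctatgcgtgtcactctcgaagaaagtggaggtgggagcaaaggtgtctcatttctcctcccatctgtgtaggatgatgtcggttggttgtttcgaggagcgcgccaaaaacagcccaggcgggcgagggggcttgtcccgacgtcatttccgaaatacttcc
Cox6a1: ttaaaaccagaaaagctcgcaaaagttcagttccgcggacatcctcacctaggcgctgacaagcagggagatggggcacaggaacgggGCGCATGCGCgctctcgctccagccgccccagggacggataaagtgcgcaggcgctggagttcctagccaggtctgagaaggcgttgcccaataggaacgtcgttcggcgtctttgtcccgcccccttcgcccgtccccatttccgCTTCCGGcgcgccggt
The E-box of Cox8b began 19 bases before the start, and in Cox6a1 the NRF1 pair began 162 and the ETS core 16 bases before it. A match is a run of letters and does not show that a factor binds there.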

How the data were processed

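The 18 mRNA libraries were all used. Per the labels' protocols, stranded TruSeq libraries were sequenced on a NextSeq instrument, with use of Cuffdiff, TopHat2 and FastQC on build mm9 per the submitters' processing notes. No version, annotation or rule for shared reads was found in those notes or labels. The deposited tables are 1 per stage. Their raw fragments are expected counts per the file headers, and their RPKM values were normalized by the authors, separately per stage. Tables number replicates from 0, taken in order as 1 to 3.

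Of 23929 genes listed, 2 date-like names and 6 genes with a failed estimate were left out. Fragments were rounded (1.79% were not whole) and tested with edgeR 4.0.16 (TMM, filterByExpr, robust quasi-likelihood F test, Benjamini-Hochberg over all genes tested, threshold 0.05) in R 4.3.3, within a stage over 6 libraries and between 2 stages over 12. Standard errors (SE) were derived from the F statistic. Alternatives were DESeq2 1.42.0, limma 3.58.1 on log2(RPKM + 1) or log2(RPKM + 0.1), RLE factors, no filter, no robust step, 1 fit of all libraries, a replicate block and leaving out each library. The tests were checked on simulated counts. No 2 replicates agreed within sampling noise (chi-square per gene at least 8.26).

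The genes and lists were chosen with earlier results of these data known. Named genes were those past a KO threshold, the restricted forms with their counterparts, the largest changes per comparison and the extremes of each complex. Genes with copies and some of the genes with calls that 1 library decides were also named.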

Additional observations from a re-analysis of the deposited data

How the results depend on the processing

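Leaving out 1 library moved the number of genes called from 1 to between 0 and 3 for KO against WT at E11.5 (0 without KO replicate 2, 3 without KO replicate 1, 2 without WT replicate 3). The range was 18 to 50 for E11.5 against E9.5 in WT, 17 to 27 for that step in KO, 16 to 30 for E12.5 against E11.5 in KO and 8 to 11 in WT. For the change of the KO effect from E11.5 to E12.5 it was 0 to 1 (1 without E12.5 WT replicate 2), and for the 3 remaining results it was 0. DESeq2 called 5 genes at E11.5 and 1 in the change from E11.5 to E12.5, Ndufs5. Without genes that have near-identical copies, 0 were called at E11.5. Calls of Cox5a, Uqcrfs1, Cox8a, Cox4i2, Cox6a2 and Ndufv3 between E11.5 and E12.5 (Cox8a in KO alone) were kept under every alternative run. For that step in KO the lower calls of Atp5g3, Ndufb2, Ndufb5, Ndufb6 and Uqcrb were lost in runs that left out a library. Many lower calls for E11.5 against E9.5 were lost in such runs too, among them Atp5j, Ndufb9 and Ndufc2 in WT and Ndufb10 in both genotypes.

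Among the genes chosen by the naming rule, signs turned in these cases. Ndufs5 summed with BC002163, chosen after seeing the data, gave log2 values of 0.090 for KO against WT at E11.5, -0.078 for E12.5 against E11.5 in KO and 0.159 for E11.5 against E9.5 in KO. Ndufs5 alone ranged over -10.7 to 2.18 without 1 library in that last comparison. Uncalled values of such genes that crossed 0 without 1 library were those of Cox4i2 (-0.22 to 0.48) and Cox6b2 (-0.029 to 0.18) at E9.5, Cox7a1 at E11.5 (-0.45 to 0.084), and Cox4i2 (-0.018 to 0.19) and Cox7c (-0.14 to 0.57) at E12.5. Over the whole set, leaving out 1 library turned the sign of 16 to 34 genes for KO against WT at E9.5 (34 without WT replicate 1), 2 to 9 at E11.5 (9 without KO replicate 2) and 2 to 15 at E12.5 (15 without WT replicate 3). Apart from Ndufs5 the cause was not tested.

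Replicate numbers were not shown to pair the libraries. Same-numbered libraries deviated with correlations of -0.465 to -0.01 at E9.5, -0.387 to 0.029 at E11.5 and 0.014 to 0.3 at E12.5. The libraries of 2 of the 9 pairs, both at E12.5, correlated best with their own number. With 3 libraries a group these values cannot exclude pairing. With the replicate number as a block the counts were 0, 1 and 0 for KO against WT in order of stage, 21 in KO and 29 in WT for E11.5 against E9.5, 20 in KO and 8 in WT for E12.5 against E11.5, and 0 for both changes of the KO effect.

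Counts were low for Cox6a2 and Cox8b, with at most 72 and 27 fragments in a library.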
